A study of Homo sapiens with 2 samples.

Results

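The genes of leukotriene and prostaglandin synthesis were chosen by name, as 10 genes of this pathway, and their values were read in MCF-10A cells that expressed EGFP-ARHGAP4 or EGFP alone. A named feature was found for 7 of the 10, among 14812 named genes in all: ALOX5AP, ALOX5, LTA4H, LTC4S, PTGS1, PTGS2 and PTGES. The other 3, ALOX15B, ALOX12B and PLA2G4A, were not analysed here. The group was chosen with the ALOX5AP difference between these arrays already known, so that difference is given as a description.

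MCF-10A is a human cell line established from breast epithelium that does not form tumours. The study holds 2 samples, each with 1 array: cells stably carrying the EGFP vector, and cells stably carrying ARHGAP4, a GTPase-activating protein, joined to EGFP. Both lines are therefore MCF-10A with an introduced EGFP construct, and MCF-10A without a construct was not analysed here. The labels do not say whether each line was a single clone or a pool of cells. With 1 array per group there is no replicate check, so no SD, standard error or p-value is given for any gene, and every difference below is between these 2 arrays. They are called the vector array and the ARHGAP4 array, and where a gene is given a pair of values, the vector array comes first.

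Eicosanoids are short-lived lipid signals made from arachidonic acid. The acid is released from membrane phospholipids by phospholipases A2 such as that of PLA2G4A. Cyclooxygenases (PTGS1 and PTGS2) turn it into prostaglandin H2, from which the synthase of PTGES makes prostaglandin E2. Alternatively, 5-lipoxygenase (ALOX5), helped by its activating protein FLAP (ALOX5AP), makes leukotriene A4, which is converted to leukotriene B4 by the hydrolase LTA4H or to leukotriene C4 by LTC4S. The leukotriene arm is best known from white blood cells, while epithelial cells are known mainly for prostaglandin E2.

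The start-site windows of 3 of these genes are printed here because ALOX5AP and PTGS2 were the members with a higher value in the ARHGAP4 array and PTGES is the synthase that completes the prostaglandin E2 route. They are RefSeq windows on GRCh38.p14, 5′ to 3′ on the strand of the gene, from 250 bases before to 50 bases after the annotated start. Capitals mark matches to any of 12 motifs searched on both strands.
ALOX5AP, chr13:30713235-30713534, plus strand: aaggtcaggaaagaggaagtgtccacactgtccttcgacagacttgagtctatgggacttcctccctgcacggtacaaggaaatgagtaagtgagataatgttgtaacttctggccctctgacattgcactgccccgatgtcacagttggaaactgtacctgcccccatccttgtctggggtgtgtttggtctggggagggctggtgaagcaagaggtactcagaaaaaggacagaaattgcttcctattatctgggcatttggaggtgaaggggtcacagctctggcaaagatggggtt
PTGS2, chr1:186680374-186680673, minus strand: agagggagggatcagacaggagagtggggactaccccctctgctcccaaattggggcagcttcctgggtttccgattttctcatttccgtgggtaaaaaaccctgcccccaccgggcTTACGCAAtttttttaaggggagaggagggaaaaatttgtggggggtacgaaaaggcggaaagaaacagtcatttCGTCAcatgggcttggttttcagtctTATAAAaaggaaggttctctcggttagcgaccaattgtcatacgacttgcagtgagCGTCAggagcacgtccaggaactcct
PTGES, chr9:129752993-129753292, minus strand: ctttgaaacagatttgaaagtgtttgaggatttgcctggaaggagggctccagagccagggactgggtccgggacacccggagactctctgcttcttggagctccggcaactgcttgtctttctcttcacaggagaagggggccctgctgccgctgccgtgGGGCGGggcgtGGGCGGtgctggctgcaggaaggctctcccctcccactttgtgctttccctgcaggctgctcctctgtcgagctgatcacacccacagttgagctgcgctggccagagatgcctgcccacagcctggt

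The motifs were the TATA box (TATAAA), the cyclic AMP response element (TGACGTCA) and its core (TGACG), AP-1 (TGANTCA), the E-box (CACGTG), the GC box (GGGCGG), C/EBP (TTGCNNAA), TEAD (GGAATG), ETS (CCGGAA), RUNX (TGTGGT), NF-kB and the CArG box of SRF. The core element lies within the full response element, so each match to the latter is also a match to the former. The ALOX5AP window held none of them, which says only that these letters are absent from this window. That window sits at the most upstream annotated start, and RefSeq lists 3 ALOX5AP transcripts, so a start further downstream was not examined. The PTGS2 window held a TATA box whose first base is at position -32 from the start, a C/EBP match and 2 matches to the core of the cyclic AMP response element. Over all 35116 windows of this length, 11.5% held the TATA box, 10.5% the C/EBP motif and 24.6% the TGACG core. The PTGES window held 2 GC boxes and no TATA box, and 45% of all windows held a GC box. A match is a description of letters, not of a bound site. An absent match, as for NF-kB in the PTGS2 window, says only that no stretch fits the letters searched. Near matches were not counted.

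Values are the deposited log2 expression values, in which 1 unit is a 2-fold difference, and a difference is EGFP-ARHGAP4 minus EGFP vector. A gene was said to be past the level filter when at least 1 of its values reached 4.02, the median over all genes and both arrays. Of the 7 measured members 5 were past it. PTGS2 passed through the ARHGAP4 array alone, and ALOX5 and PTGS1 lay below it in both arrays. Each member rested on 1 feature. Values of different features are not read as relative amounts of RNA, because probes differ in how strongly they hybridise. The level filter, the distances to ALOX5AP and the marker sums below do use such values.

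ALOX5AP, whose product FLAP is a membrane protein that presents arachidonic acid to 5-lipoxygenase and has no enzyme activity of its own, was the member that stood far from the rest. Its value was 4.44 in the vector array and 8.24 in the ARHGAP4 array. It was thus near the level filter in the first and well above it in the second. The difference of 3.80, or 14.0-fold, was the highest of the 7685 genes past the filter, and SRGN, at 3.51, was the other gene above 3. In bulk RNA of this kind, more cells that express a gene and more RNA per cell cannot be told apart.

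The partner enzyme of FLAP showed no such difference. ALOX5, 5-lipoxygenase itself, had a value of 3.28 in the vector array and 2.71 in the ARHGAP4 array. Both values were below the level filter, and no detection calls were used. The difference was -0.57. Among the 7127 genes below the filter, 6.13% differed by at least 0.5 in either direction. COTL1, a coactosin-like protein that binds 5-lipoxygenase, stood at 9.32 and 9.34, a difference of 0.02.

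The enzymes that act on leukotriene A4 differed little. LTA4H, which makes leukotriene B4, stood at 7.79 in the vector array and 7.72 in the ARHGAP4 array. Its difference of -0.06 turned above 0 under some scalings and was 0.07 at the highest, so no direction is given for it. LTC4S, which joins glutathione to leukotriene A4, stood at 4.83 and 4.51. This difference of -0.32 was a 1.25-fold lower value, with both arrays past the filter.

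Of the cyclooxygenases, PTGS1, the form known as constitutive, stood at 3.36 in the vector array and 3.16 in the ARHGAP4 array. Both lay below the filter, and the difference was -0.20. PTGS2, the form induced by growth factors and inflammatory signals, stood at 3.67 and 4.11. The difference of 0.44, or 1.35-fold higher, carried it from below to just above the filter, and 529 of the 7685 genes past the filter had a higher one. PTGES, the microsomal synthase that acts after the cyclooxygenases, stood at 9.51 and 9.35, far above the filter in both arrays. Its difference was -0.16, or 1.12-fold lower.

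**Figure D1:**
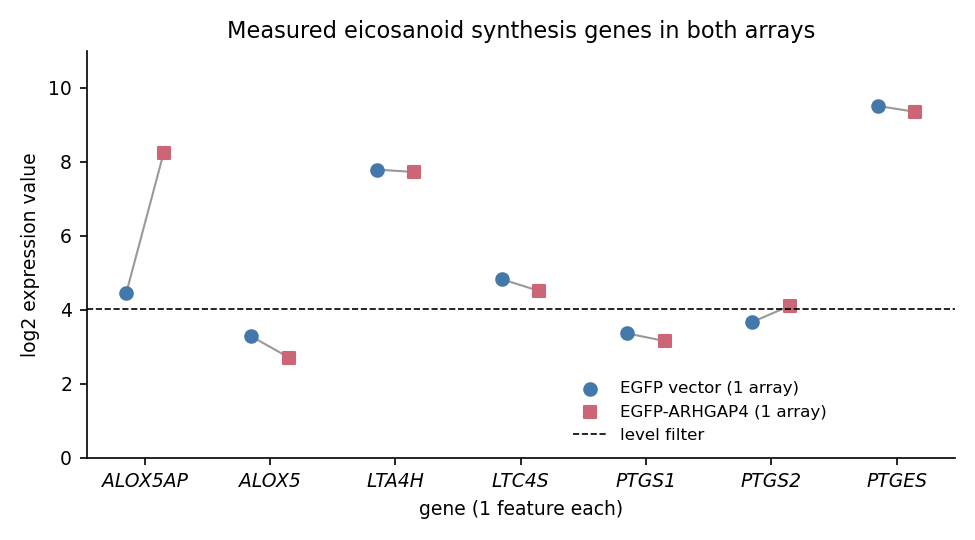
Log2 expression values (vertical axis) of the 7 measured genes in the vector array (circles) and the ARHGAP4 array (squares), 1 array each, with the level filter at 4.02 as a dashed line. ALOX5AP goes from 4.44 to 8.24, while the other 6 genes differ by no more than 0.57 in either direction.

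Counted together, 1 of the 7 measured members was at least 2-fold higher in the ARHGAP4 array and 0 were lower by that factor. Over all 14812 genes, 0.581% were higher and 0.486% lower by 2-fold or more. Since the group was chosen with the ALOX5AP difference known, nothing is read from this count. At a log2 difference of 0.5, 1 member was higher (ALOX5AP) and 1 was lower (ALOX5), against 4.25% and 6.47% of all genes. The median difference of the 7 was -0.16, and that of all genes was -0.03. Genes past the filter had a lower median, -0.10, with quartiles of -0.29 and 0.12. Without ALOX5AP the remaining 6 lay between -0.57 and 0.44 with a median of -0.18, and 5 of them differed by less than 0.5, as did 89.3% of all genes. Among genes past the filter with several features, the SD between features of the same gene was 0.21, which is agreement on the same 2 arrays and not between cultures. The differences of LTA4H and PTGES were smaller than this SD under each scaling tried, and that of PTGS1 under all but loess removal.

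**Figure D2:**
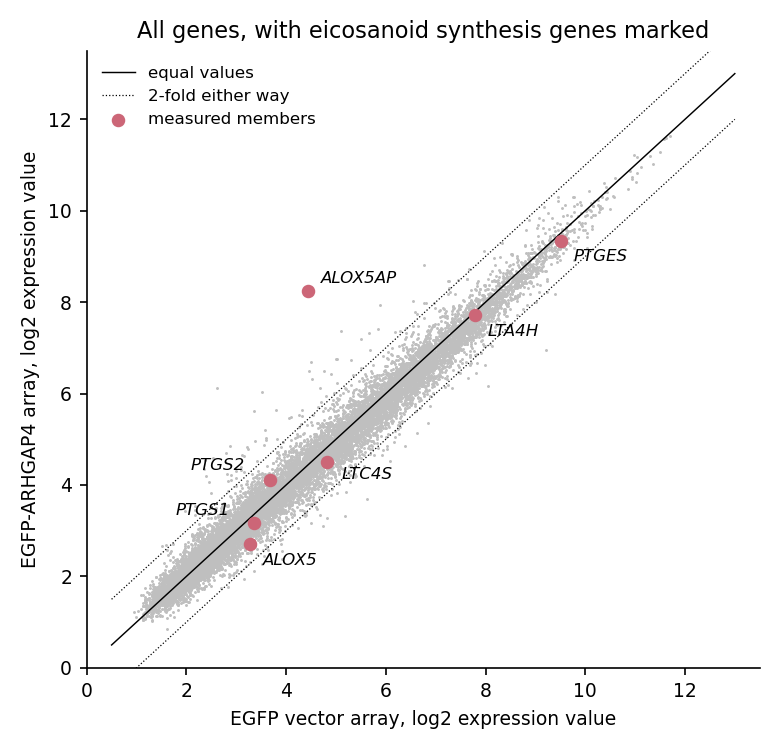
Log2 expression values of all 14812 genes (grey points) in the vector array (horizontal axis) and the ARHGAP4 array (vertical axis), with the 7 measured members in red, equal values as a solid line and 2-fold differences as dotted lines. ALOX5AP, at 4.44 and 8.24, lies outside the cloud of genes, and the other members lie within the dotted lines.

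FLAP, leukotriene C4 synthase and the prostaglandin E synthase of PTGES belong to a single protein family, known as MAPEG (membrane-associated proteins in eicosanoid and glutathione metabolism). All 6 listed members of this family were measured. The 5 other than ALOX5AP had differences between -0.32 and -0.15, and all 5 stayed below 0 under each scaling tried. The median of all genes past the filter was itself -0.10 as deposited. Those not yet given are the microsomal glutathione transferases MGST1 at 5.995 and 5.81, MGST2 at 4.82 and 4.64, and MGST3, below the filter, at 3.66 and 3.51; the 3 are named here after their values were seen. ALOX5AP was thus the 1 gene of the family with a higher value in the ARHGAP4 array. As deposited, the differences of the 3 transferases and of PTGES were smaller than the SD of 0.21 between features of the same gene.

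Of the 6 listed lipoxygenases 4 were measured. ALOXE3, an epidermal lipoxygenase that acts after 12R-lipoxygenase, had the same value of 4.59 in both arrays to the last digit, as 5.49% of all genes did. ALOX12 and ALOX15, named after their values were seen, lay below the filter with differences of 0.03 and 0.06. In the list of the epidermal 12R-lipoxygenase pathway 5 of 12 genes were measured, with a median of 0, or -0.37 for the 3 past the filter. That of all genes past the filter was -0.10. In this list UGCG, the glucosylceramide synthase, stood at 6.71 and 6.16, a difference of -0.55, and NIPAL4 at 4.79 and 4.42.

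Over the 11 lists of related genes, 71 of the 144 genes that are not members were measured and 43 of them passed the level filter. None was at least 2-fold different in either direction, against 1.07% of all genes. A difference of at least 0.5 was found upwards in 4 and downwards in 5 of the 71, and the remaining 62 differed by less. Over all genes, 4.25% were higher and 6.47% lower by at least 0.5, and 89.3% differed by less. Their median difference was 0.

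The list of prostanoid synthases holds the cyclooxygenases PTGS1 and PTGS2, which make prostaglandin H2, and genes that take it or its products further. It was measured for 11 of 14 genes, members included, with a median of -0.16. PTGES3, also known as the HSP90 co-chaperone p23, was the lowest, at 8.27 in the vector array and 7.61 in the ARHGAP4 array. Its 2 features differed by -0.55 and -0.78, and the gene has processed copies in the genome whose RNA a feature could share. No gene of this list was higher by 0.5, and 1 was lower by as much; PTGS2 had the highest difference.

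Among genes that break down prostaglandins or carry them across membranes, 4 of 9 were measured. Their median was -0.20, or -0.38 for the 3 past the filter, against -0.10 for all genes past the filter. PTGR1, a reductase known to inactivate leukotriene B4 and prostaglandin metabolites, stood at 6.14 and 5.61, 1.45-fold lower. PTGR3, a related reductase, stood at 5.95 and 5.58, with both of its features lower, at -0.39 and -0.37.

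Of 18 receptors and related membrane or nuclear proteins 15 were measured, but 4 of them passed the level filter. PTGFRN, a membrane protein that binds the prostaglandin F2 receptor, stood at 7.72 and 7.50, and PTGIR, the prostacyclin receptor, at 5.33 and 5.16. The median of the 15 was -0.06, or -0.20 for the 4 past the filter, and the former turned above 0 after centring alone, to 0.04. All genes past the filter had a median of -0.10. The extremes, named after their values were seen, lay below the filter in both arrays: the prostaglandin E2 receptor gene PTGER4 was at 3.07 and 3.64, and PPARG, a nuclear receptor for fatty acid derivatives, at 3.64 and 3.07.

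Genes that supply arachidonic acid or return it to phospholipids were measured for 17 of 21, with a median of 0.00. LPCAT2, an acyltransferase that also makes platelet-activating factor, was the lowest, at 7.82 in the vector array and 6.86 in the ARHGAP4 array, 1.94-fold lower. MBOAT7, which attaches arachidonic acid to lysophosphatidylinositol, stood at 5.68 and 6.28, 1.51-fold higher. FADS1, the desaturase that completes arachidonic acid, stood at 6.62 and 7.19, 1.49-fold higher. These 3 were the genes of the list with a difference of at least 0.5. ANXA1, annexin A1, stood at 9.61 and 9.58, and ACSL4, an acyl-CoA synthetase that prefers arachidonic acid, at 8.80 and 8.83.

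Few genes of the remaining branches had a named feature. Of 23 listed phospholipases A2 and related lipases, PNPLA8 alone was measured, at 6.71 and 6.60, so the release of arachidonic acid is hardly covered by these values. Of 20 genes of the cytochrome P450 and epoxide hydrolase branch 2 were measured: EPHX4 stood at 5.55 and 5.11 and EPHX3, below the filter, at 3.32 and 3.48.

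The list of inducers and mRNA regulators of PTGS2 was measured for 11 of 22 genes, with a median of 0.24. It also holds IL1RN, which encodes an antagonist of the interleukin 1 receptor and is not an inducer. For the 8 past the level filter the median was 0.10, while the 3 below it, TNF, TLR4 and IL1RN, named after their values were seen, were at 0.44, 0.37 and 0.34. Of the 11, 8 were above 0, the 3 below the filter among them, and 2 were below 0. Those 2, CREB1 at -0.27 and NFKB1 at -0.12, were past the filter and are named after their values were seen. The share of all genes above 0 was not set beside this count, so nothing is read from it. The median of all genes was -0.03, and that of all genes past the filter was -0.10. FOS, a subunit of AP-1, stood at 4.82 and 5.35, and its 2 features were at 0.79 and 0.27. The receptor gene EGFR stood at 9.40 and 9.56, and RELA, a subunit of NF-kB, at 8.22 and 8.25. No gene of this list was 2-fold different. IL1A, IL1B, CEBPB and the mRNA regulators ZFP36, ELAVL1 and CELF2 were among those not analysed here.

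**Figure D3:**
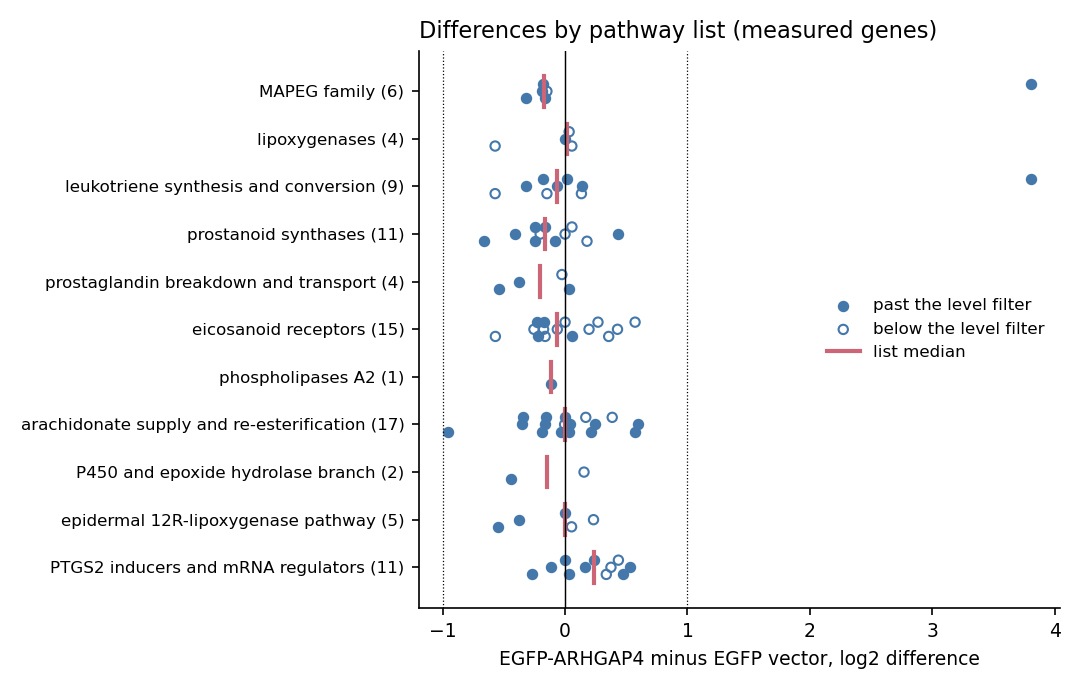
Log2 differences (EGFP-ARHGAP4 minus EGFP vector, horizontal axis) of the measured genes of 11 pathway lists (rows, with the number measured), as filled points for genes past the level filter and open points for genes below it, with list medians in red and 2-fold as dotted lines. ALOX5AP, at 3.80 in the rows of the MAPEG family and of leukotriene synthesis, is the single point beyond 2-fold; LPCAT2, at -0.95, is the lowest.

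ALOX5AP lies on chromosome 13. Its difference was the highest of all genes past the filter, so no neighbour past the filter could match it. USPL1, the measured gene before ALOX5AP, was at -0.47, and LINC00398, after it, at -0.14. The 10 genes past the filter on each side of ALOX5AP lay between -0.89 and 0.50, with a median of -0.31. The median of all genes past the filter was -0.10. Of the 20 neighbours, 1 was higher and 4 were lower by at least 0.5, and 0 reached 2-fold. Over all genes, on either side of the filter, 4.25% were higher and 6.47% lower by at least 0.5, and 1.07% reached 2-fold.

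ALOX5 lies on chromosome 10, where the genes on either side had another pattern. The 10 genes past the filter before it had a median difference of 0.03 and the 10 after it 0.58. The median of all genes past the filter was -0.10. Of the 20, 7 were higher by at least 0.5, against 4.25% of all genes, and 3 of the 20 reached 2-fold, against 1.07%. These shares are over all genes, on either side of the filter. Among the 7 were ANXA8 and ANXA8L1, at 0.63 and 0.64, and LINC00842 and HNRNPA1P33, at 1.01 and 1.02, named after their values were seen. Whether features of such genes share RNA was not checked, so the 7 are not read as separate observations. The 2 lower by at least 0.5, against 6.47% of all genes, were ZNF33A and ZNF37A, named after their values were seen. ALOX5 itself was at -0.57. The measured genes next to it, MIR3156-1 and TIMM23, were at 0.17 and 0.01.

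For the other members, medians of the 20 neighbours were -0.36 for LTA4H, -0.16 for LTC4S, -0.18 for PTGS1, -0.26 for PTGS2 and -0.07 for PTGES. That of all genes past the filter was -0.10. Of the 20 neighbours of each, 14 differed by less than 0.5 for PTGS2, 15 for LTA4H, 16 for PTGS1, 18 for LTC4S and all 20 for PTGES. Over all genes, on either side of the filter, 89.3% did so. PTGS2, at 0.44, was higher than the median of its neighbours, of which 2 were higher and 4 lower by at least 0.5, and its adjoining genes, PDC and LINC01720, were at 0 and -0.06. For LTA4H the adjoining genes HAL and CDK17 were at -0.02 and -0.66, and for LTC4S, MAML1 and MIR1229 were at 0.11 and 0.03. For PTGS1, MRRF and PDCL were at 0.23 and -0.01, and for PTGES, PRRX2 and C9orf78 were at -0.24 and 0.04.

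**Figure D4:**
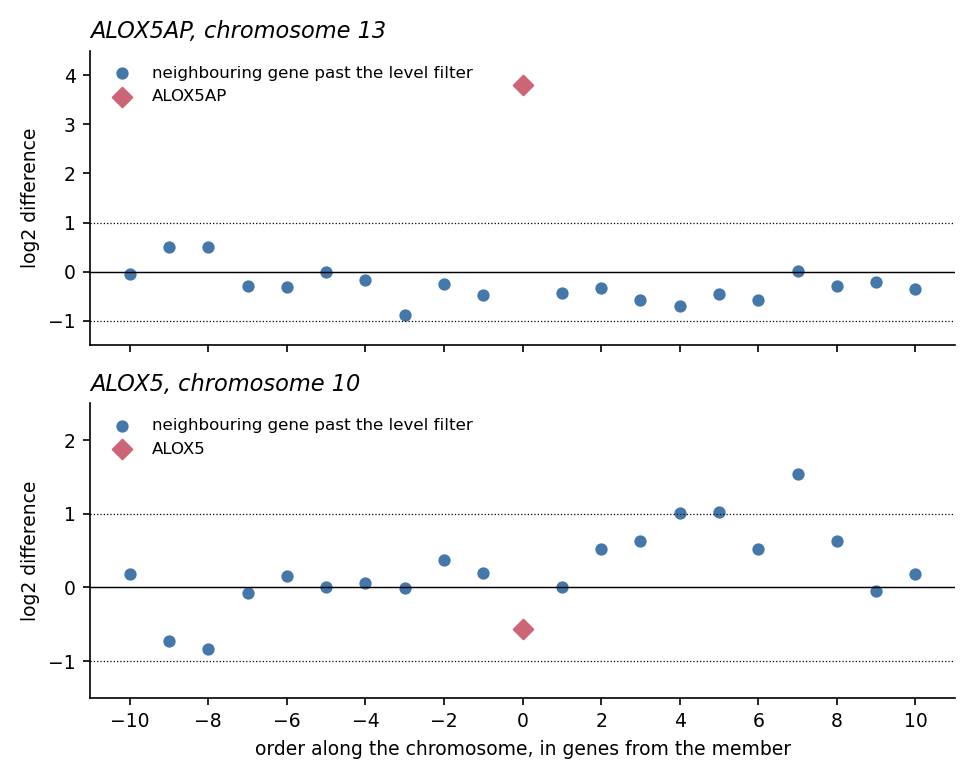
Log2 differences (vertical axis) of ALOX5AP (top) and ALOX5 (bottom), as diamonds, and of the 10 genes past the level filter on each side of them in chromosome order (horizontal axis, in genes). The neighbours of ALOX5AP stay between -0.89 and 0.50, and those after ALOX5 have a median of 0.58 while ALOX5 is at -0.57.

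The 5 genes past the filter whose pair of log2 values was closest to that of ALOX5AP, by Euclidean distance over the 2 arrays, were LAMP3, GDF15, VGLL3, LCP1 and ARHGAP4. LAMP3 was the nearest, at 5.10 and 7.37, a distance of 1.10. GDF15 was at 5.88 and 7.94, VGLL3 at 5.50 and 7.19, and LCP1 at 5.66 and 7.33. The distances reached 1.56, for ARHGAP4, and the 5 differences lay between 1.67 and 2.27, well short of 3.80. SRGN, second to ALOX5AP in its difference, was at 2.61 and 6.13 and not among the 5. With 2 arrays a distance rests on 2 numbers per gene, and a value also depends on the probes of its feature.

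ARHGAP4 itself stood at 4.49 and 6.68, in the direction of the labels. The deposited columns had medians of 2.88 in both arrays over 44629 features, and their values correlated across features with r = 0.987; features are not independent replicates. Of 13 listed mammary epithelial markers 8 were measured and 6 passed the filter, with a median difference of 0.22, or 0.05 past the filter. EPCAM, at 6.58 and 7.79, was 2.30-fold higher. KRT14, at 9.21 and 6.96, was 4.76-fold lower, the lowest difference of all 7685 genes past the filter. SFN stood at 10.39 and 10.41, KRT5 at 8.33 and 8.34, KRT18 at 7.30 and 7.38, and KRT8 at 5.06 and 5.43. Below the filter, KRT19 was at 2.99 and 3.39 and CLDN4 at 2.69 and 3.42. CDH1 and TP63 were not analysed here.

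ALOX5AP is known from white blood cells, and their markers were read in the same arrays. Of 18 leukocyte markers 9 were measured and 5 passed the filter, with a median difference of -0.01. LCP1, an actin-bundling protein also known from epithelial tumour lines, was at 1.67 and was the 1 gene of the list beyond 2-fold. The summed linear value of the 9 was 336 in the vector array and 496 in the ARHGAP4 array, or 286 and 335 without LCP1. Such a sum is weighted toward the features with the highest values. CD68 had the highest of the 9 in both arrays, so the sum without LCP1 does not speak for the markers as a set. The macrophage marker CD68 was also higher, at 7.32 and 7.80, and so was CSF1R, a receptor of myeloid cells, at 3.41 and 3.91, below the filter. SPI1, a transcription factor of myeloid cells, had the same value of 4.24 in both arrays. The other 5 were below 0, among them TYROBP at 4.17 and 3.76, CD14 at 5.84 and 5.48, and LYZ, below the filter, at 1.70 and 1.69. PTPRC, the common leukocyte antigen, was not analysed here. Of 14 mast cell and granulocyte markers 9 were measured and 1 passed the filter, with differences between -0.35 and 0.30 and summed linear values of 64.8 and 68.3. Of the endothelial and fibroblast markers 5 of 8 and 3 of 8 were measured, and none differed by 0.5. The part of LCP1 or of other cell types in the ALOX5AP difference was not tested.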

How the data were processed

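Total RNA from each sample was amplified to sense-strand cDNA, labelled with biotin and hybridised to an Affymetrix whole-transcript array, per the labels' protocols. The deposited table holds 1 log2 value per feature and array; neither the labels nor the table state how features were summarised or normalized, or on which genome build. Its base was inferred: the largest value, 12.8, is above what a natural log of a 16-bit scanner reading can reach, 11.1. Values were used as deposited. The number of arrays limits the precision.

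The supplied platform annotation gave 1 symbol to 15835 of 44629 features, several to none and no symbol to 28794; all 15835 matched the GRCh38.p14 RefSeq table, used for names and gene order. Features of a gene were averaged. Genes were named if they were measured members, differed by at least 0.5 past the level filter (up to 6 per list), were among the 2 highest values of a list, were nearest to ALOX5AP, or adjoined a member. SRGN and the cell type markers, which this rule does not cover, were named after their values were seen, and further such names are marked in the text. Members and lists were chosen with earlier results of these data known. Of the 10 genes 8 had a RefSeq start-site window. Groups follow the genotype labels, and no test was run. Alternatives were quantile normalization, centring, loess removal (span 0.3), the highest feature, a level filter at the 0.75 quantile and thresholds of 1.5-fold and 3-fold. Calculations ran in Python 3.11.15 (numpy 2.4.6, pandas 2.3.3, matplotlib 3.10.9, statsmodels 0.14.6) and were tested on simulated data.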

Additional observations from a re-analysis of the deposited data

How the results depend on the processing

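The ALOX5AP difference lay between 3.80 and 3.91 over quantile normalization, centring, loess removal and the choice of feature. Of the 7 members LTA4H alone changed sign under these settings, from -0.06 to 0.07, and PTGS2 stayed between 0.44 and 0.54. The median of the leukotriene list turned above 0 after quantile normalization, centring and loess removal (up to 0.07), that of the receptors after centring alone (0.04), and PNPLA8, the 1 measured phospholipase, after loess removal alone (0.002). After centring, 2 members (ALOX5AP and PTGS2) were higher by at least 0.5 and 0 lower. With the level filter at the 0.75 quantile, 0 members were lower by 0.5, because ALOX5 no longer entered, and the median was -0.46 for prostaglandin breakdown and transport and -0.55 for the epidermal list, with fewer genes in each. Over all genes, 77 of those that passed the filter were 2-fold higher or more and 61 were lower; the lower count was 37 after centring. With the stricter filter the counts were 39 and 35, at 1.5-fold 277 and 495, and at 3-fold 25 and 5. The share of higher genes among those called was 55.8% as deposited, 67.2% after quantile normalization, 71.3% after centring and 68.4% after loess removal. At 1.5-fold and at 3-fold the members counted stayed at 1 higher and 0 lower. No paired analysis was possible because each group has 1 array.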
